A study of Mus musculus with 15 samples.

Results

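Gene expression was compared between testes of mice that received lentivirus against the muscarinic acetylcholine receptor M5 and testes that received lentivirus against the receptor M1. The comparison used the 3 M5 and 3 M1 libraries, 6 of the 15 libraries of the series, and every gene of the table of FPKM values (fragments mapped to a gene, scaled to the length of its transcript and to the depth of the library) whose mean over the 15 libraries was 1 or more. This gave 14514 of the 23510 genes in the table. All mice were of the outbred ICR stock. Per the study's methods, a mixture of 3 short hairpin RNAs against 1 receptor gene was injected into the testis at 5 weeks of age, and the testes were collected 10 days later. The other groups were MNC, the vector control of the lentivirus, Con, labelled as control without further detail, and M3, with lentivirus against the receptor M3, each with 3 libraries. They served as background. The share of testis cells that carried virus is not given in the sources used here, and no label says whether the 3 libraries of a group came from separate mice. The p-values below therefore measure the spread between these libraries.

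Acetylcholine acts on cells in part through muscarinic receptors, which sit in the cell membrane and signal through G proteins. A cell that carries the odd-numbered subtypes answers acetylcholine with a rise of calcium, let out of the endoplasmic reticulum through inositol trisphosphate receptors once a Gq protein has switched on a phospholipase. The even-numbered subtypes instead hold down the level of cyclic AMP. In the testis, germ cells pass from spermatogonia through meiotic spermatocytes and round spermatids to elongating spermatids, in which transition proteins and protamines replace the histones. Because M1 and M5 share the Gq pathway, their direct comparison asks where knockdown of 1 receptor left a different transcript profile from knockdown of the other.

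The libraries were examined before the genes. The 6 libraries had summed FPKM of 496090 to 510049. Of 183 genes with low values, 11 had values that were whole multiples of a unit within 5%, so reads could not be recovered and the depth is unknown. M5 replicate 3 stood apart. Its median log2(FPKM + 1) over the genes tested was 3.45, against 3.22 to 3.28 in the other 5 libraries. Its correlation across genes with the other M5 libraries was 0.971 and 0.982, against 0.987 between those 2. Several results that rest on it are given with and without it. The labels name testis, whereas their extraction text speaks of sperm. Transcripts of testicular somatic cells were abundant in all 6 libraries, with Insl3, a Leydig cell hormone, at 1062 to 2382 FPKM, and Prm1, a protamine of elongating spermatids, was at 6019 to 9026 FPKM. The description of M5 replicate 2 points to the column of M5 replicate 1, and the columns were assigned by title.

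The targeted transcripts were low in every library. Chrm5, which encodes M5, had 0.37, 0.22 and 0.37 FPKM in the M5 libraries against 0.20, 0.31 and 0.29 FPKM in the M1 libraries. The ranges of the groups overlapped, with the higher mean in the group in which Chrm5 was targeted (log2 difference M5 minus M1 0.058, exact permutation test, two-sided, p = 0.5). Chrm1, which encodes M1, had 0.06, 0.16 and 0.17 FPKM in the M5 libraries against 0.14, 0.11 and 0.09 FPKM in the M1 libraries (log2 difference 0.020, exact permutation p = 0.8). Chrm3 had 0.02, 0.09 and 0.04 FPKM in the M5 libraries against 0.01, 0.03 and 0.04 FPKM in the M1 libraries (exact permutation p = 0.5). With 3 against 3 libraries the smallest possible p is 0.1. All 3 genes were under the filter, so these transcripts give no check of the group labels, and the signs of all 3 differences turned when each library was centred on its median.

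Across the 14514 genes tested, 980 were called at an adjusted p under 0.05 by limma, a linear model with moderated variances (6.75% of the genes tested). Of these, 469 were higher in M5 (3.23%) and 511 were lower (3.52%). The groups did not overlap in any of the 980 genes, whereas they did not overlap in 33.7% of all genes tested. Most differences were small. The median size among called genes was 0.40 on the log2 scale, and 75 genes reached 1, of which 43 were higher and 32 lower in M5. The median difference of all genes tested was 0.04, so the typical gene sat close to 0 while called genes moved both ways. The number of calls depended on which library was left out. Each such fit also had 1 library fewer, and the part of the smaller group was not tested. Without M5 replicate 3 there were 1690 genes called, of which 903 were among the 980. Without M1 replicate 1, M1 replicate 3 and M5 replicate 2 there were 56, 85 and 135. A set of 45 genes was called in the full comparison and in each of the 6 fits without 1 library (0.31% of the genes tested), and these are marked below as called in every fit.

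**Figure D1:**
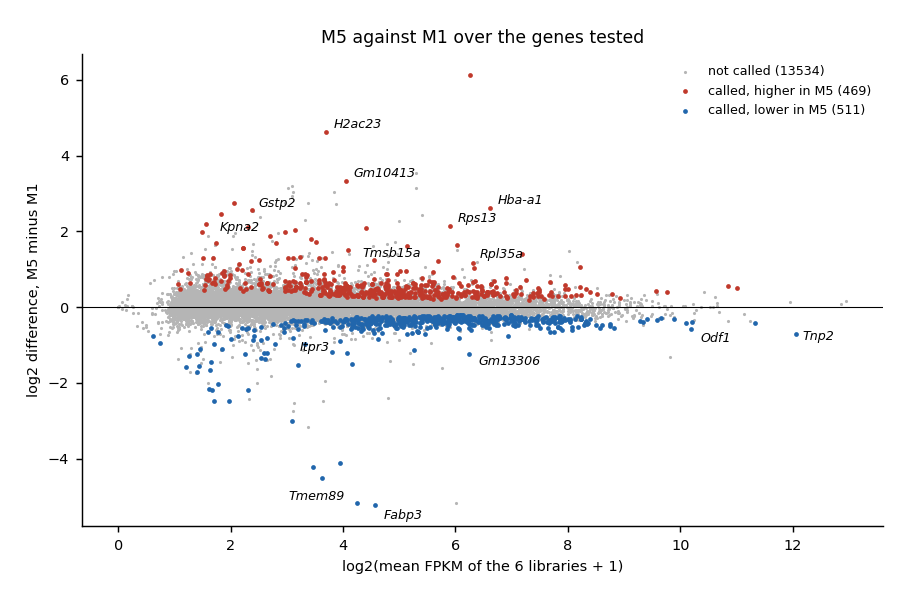
Each point is a gene tested, with log2 of its mean FPKM over the 6 libraries plus 1 on the x axis and the log2 difference of M5 minus M1 on the y axis. The 469 genes called higher in M5 are red, the 511 called lower are blue, and most called genes lie within 1 log2 unit of 0 while H2ac23, Fabp3 and Tmem89 lie beyond 4.

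The largest named difference upward was that of H2ac23, a gene of the core histone H2A (chr13:21810367-21810918, GRCm38). It was listed at 0 in all 3 M1 libraries and was at 20.8, 22.6 and 28.7 FPKM in M5 (limma adjusted p = 0.000139, called in every fit). It was also listed at 0 in all Con and MNC libraries and in M3 replicates 1 and 2, but was at 19.1 FPKM in M3 replicate 3. Of the 31-base windows of its transcript, 93.8% occur in transcripts of other genes, so its reads cannot be assigned with certainty. In the other direction, Tmem89, a predicted membrane protein gene (chr9:108914619-108915563), was at 34.5, 26.4 and 47.5 FPKM in M1 and listed at 0 in all 3 M5 libraries (limma adjusted p = 0.00035, called in every fit). Fabp3, a fatty acid binding protein (chr4:130308738-130315463), was at 46.2, 51.5 and 37.7 FPKM in M1, at 0.84 FPKM in M5 replicate 1 and listed at 0 in M5 replicates 2 and 3 (limma adjusted p = 0.000751, called in every fit). The means of MNC and Con were 40.1 and 40.7 FPKM for Tmem89 and 56.2 and 62.6 FPKM for Fabp3, near those of M1. Both genes were listed at 0 in M3 replicate 3. None of the windows of Tmem89 is shared with another gene, against 37.3% of those of Fabp3. Fabp3 overlaps Zcchc17, which had means of 7.81 FPKM in M1 and 8.3 FPKM in M5 and was not called (limma adjusted p = 0.678).

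The 100 bases before the start of these 3 genes and of Tnp2, a spermatid gene described below, are shown because these genes carry the switch-like or highly abundant differences. They are RefSeq sequences of GRCm38.p6, on the strand of the gene, with matches to the CCAAT box in capitals.
H2ac23, chr13:21810267-21810366: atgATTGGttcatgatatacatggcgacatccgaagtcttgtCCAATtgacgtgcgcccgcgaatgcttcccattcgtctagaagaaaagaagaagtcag
Tmem89, chr9:108914519-108914618: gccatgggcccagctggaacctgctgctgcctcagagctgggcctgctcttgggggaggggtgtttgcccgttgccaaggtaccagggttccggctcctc
Fabp3, chr4:130308638-130308737: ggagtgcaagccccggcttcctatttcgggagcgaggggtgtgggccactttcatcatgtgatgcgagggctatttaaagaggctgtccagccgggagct
Tnp2, chr16:10788656-10788755, minus strand: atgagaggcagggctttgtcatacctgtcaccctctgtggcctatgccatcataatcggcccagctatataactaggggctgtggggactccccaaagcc
The H2ac23 window held the CCAAT box 2 times, at bases -97 to -93 and -58 to -54 from the start, and the other 3 windows held none. On either strand, 18.9% of 32851 windows of the same length held it. The cAMP response element, searched as TGACGTCA, was in none of the 4 windows, against 1.15% of all windows. The heat shock element, searched as GAANNTTC, and the box of the TATA-binding protein, searched as TATAAA, were in none of the 4 either, against 2.7% and 5.56%.

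Further single genes rose several-fold in M5. Rps13, a protein of the small ribosomal subunit (chr7:116331507-116334190), was at 19.2, 23.04 and 20.9 FPKM in M1 and at 103, 99.1 and 87.1 FPKM in M5, 4.59 times the mean of M1 (log2 difference 2.14, SE 0.090, limma adjusted p = 0.000356, called in every fit). Its mean was 14.4 FPKM in MNC and 15.7 in Con, so all 3 M5 libraries lay above every control group. Gstp2, a glutathione S-transferase of the pi class, was at 0.09, 0.78 and 0.75 FPKM in M1 and at 8.07, 6.7 and 8.71 FPKM in M5 (log2 difference 2.55, SE 0.21, limma adjusted p = 0.00548, called in every fit). Its neighbour Gstp1, with which it shares most of its sequence, was at 57.9, 60.6 and 34.6 FPKM in M1 and at 27.2, 33.0 and 47.8 FPKM in M5, with overlapping groups (limma adjusted p = 0.313). Reads of the pair could be split between the copies. Kpna2, an importin alpha that carries proteins into the nucleus, had 2.09, 1.49 and 1.83 FPKM in M1 and 9.35, 8.82 and 9.49 FPKM in M5 (log2 difference 1.87, limma adjusted p = 0.00133), but its mean in MNC was 69.7 FPKM, and 94.2% of its windows are shared with other genes. Tmsb15a, a thymosin beta that binds actin monomers, rose from 31.4, 28.5 and 30.0 FPKM in M1 to 74.5, 76.5 and 62.5 FPKM in M5 (log2 difference 1.22, SE 0.087, limma adjusted p = 0.00288, called in every fit), and none of its windows is shared.

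The remaining named genes among the 12 largest in each direction were mostly predicted genes whose sequence is shared with other genes. On chromosome 14, Gm10413 rose from 1.86, 2.19 and 1.92 FPKM in M1 to 25.6, 32.2 and 30.2 FPKM in M5 (log2 difference 3.34, limma adjusted p = 0.000146), and Gm3685, Gm3050 and Gm5797 of that chromosome rose by 2.11, 1.70 and 1.51. In MNC replicate 3, Gm10413, Gm3685, Gm3050 and Gm5797 were at 32.3, 6.48, 14.6 and 20.8 FPKM, within or above their M5 ranges. MNC replicate 1 reached the M5 range only in Gm3685, at 11.3 FPKM, and MNC replicate 2 in none of them. All Con values of these genes lay below M5. Gm3411, also on chromosome 14, fell by 1.22, with MNC at 2.01, 7.86 and 0.99 FPKM. On the Y chromosome, Gm21642 and Gm35134 rose by 2.74 and 1.99, whereas Gm21678, Gm21409 and Gm20846 fell by 1.25, 1.22 and 1.18. Of the 102 genes tested on the Y chromosome, 21 were called higher (20.6%) and 4 lower (3.92%). Predicted genes on both chromosomes thus moved both ways, and 88.5% to 100% of the windows were shared with other genes in those of these genes that could be compared. Over all genes tested, at least 50% of windows were shared in 5.67% of genes, against 15% of the genes called higher, 5.73% of those called lower, and 20 of 32 called genes with a log2 difference of 1 or more. The other 43 of those 75 genes could not be compared, and each share covers only genes with a known transcript sequence. Gm13306, on chromosome 4, was at 103, 110 and 106 FPKM in M1 and at 44.0, 40.6 and 47.5 FPKM in M5 (log2 difference -1.25, limma adjusted p = 0.000948, called in every fit), with 93.9% of its windows shared. Gm20594 rose by 1.63, and Gm4184, 2310061I04Rik, Gm40365 and Rpl37rt fell by 4.13, 3.01, 1.36 and 1.28. The other 2 of the 24, Hba-a1 and H2al1b, are described below with the globins and the histones. Among IDs without a name, BGI_novel_G001237 was higher in M5 by 6.12 and BGI_novel_G000721 by 2.45, and BGI_novel_G001312 and BGI_novel_G001313 were listed at 0 in M5, with means of 22.8 and 20.1 FPKM in M1.

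**Figure D2:**
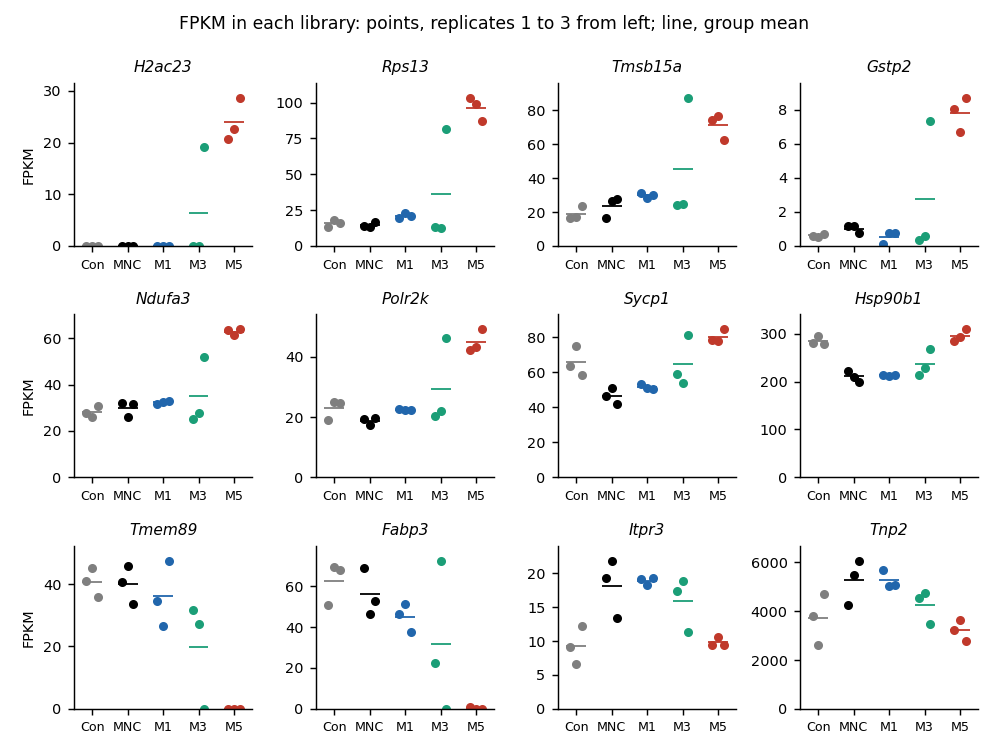
FPKM of 12 genes in each of the 15 libraries, by group, with a point for each replicate and a line at the mean of the group. The M5 points lie apart from the M1 points in every panel, and in all 12 panels M3 replicate 3 lies nearer to the M5 mean than to the M1 mean, with H2ac23 at 19.1 FPKM and Tmem89 listed at 0 in it.

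The Gq pathway was described from a list of 30 genes, of which 23 were tested. Itpr3, the type 3 inositol trisphosphate receptor that releases calcium from the endoplasmic reticulum, was called lower, and no other member was called. This was 4.35% of the list, near the 3.52% of all genes tested that were called lower. Itpr3 (chr17:27057002-27122223) was at 19.2, 18.2 and 19.3 FPKM in M1 and at 9.38, 10.6 and 9.34 FPKM in M5, so the groups were well separated (log2 difference -0.89, SE 0.074, limma adjusted p = 0.00548, called in every fit). Its mean was 18.2 FPKM in MNC and 9.32 FPKM in Con, so M1 lay near the vector control and M5 near Con. The other inositol trisphosphate receptors, Itpr1 and Itpr2, differed by 0.23 and 0.03 (limma adjusted p = 0.444 and 0.873). The genes of the Gq alpha subunits tested, Gnaq, Gna11 and Gna14, differed by 0.14, -0.06 and 0.26, and the phospholipase C beta genes Plcb1, Plcb2, Plcb3 and Plcb4 by 0.21, -0.06, 0.07 and 0.17, none of them called. Chrm4, the gene of the Gi-coupled receptor M4 and the muscarinic receptor gene with the highest values, was at 3.25, 2.99 and 4.44 FPKM in M1 and at 2.24, 2.05 and 2.29 FPKM in M5. All 3 M5 values lay below all 3 M1 values, but the gene was not called (limma adjusted p = 0.0817, exact permutation p = 0.1, the smallest that 3 against 3 allow). The median of the 23 genes was 0.07, close to that of all genes tested. Of 6 tested genes of acetylcholine handling and nicotinic receptors, limma called 0, with 0 at an unadjusted p under 0.05.

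Genes of late spermatogenesis were called lower more often than higher. Of 28 genes tested of elongating spermatids, 6 were called lower (21.4%, against 3.52% of all genes) and 0 higher, and the list had a median difference of -0.14. Tnp2, a transition protein that replaces histones, was at 5683, 5039 and 5091 FPKM in M1 and at 3221, 3661 and 2798 FPKM in M5 (log2 difference -0.71, SE 0.12, limma adjusted p = 0.027). Odf1, the major protein of the outer dense fibres of the sperm tail, was at 1456, 1370 and 1396 FPKM in M1 and at 939, 1029 and 847 FPKM in M5 (log2 difference -0.59, SE 0.085, limma adjusted p = 0.0185). Neither group overlapped the other, and M3 replicate 3 had 3475 FPKM of Tnp2 and 1077 FPKM of Odf1. The other 4 were Odf3, a further outer dense fibre gene (-0.51), Spata3 (-0.56), the head cytoskeleton gene Ccin (-0.34) and the actin-like Actl7a (-0.28). Mean Odf1 was 1330 FPKM in MNC and 695 FPKM in Con, on either side of M5, whereas mean Tnp2 was 5280 and 3710 FPKM, both above the mean of M5. The Con values of Tnp2 were 3795, 2614 and 4710 FPKM, so Con and M5 overlapped.

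The other transition protein gene and the protamine genes were not called. Tnp1, the second transition protein, was at 3740 ± 138 FPKM (SD, n = 3) in M1 and at 4170 ± 731 FPKM (SD, n = 3) in M5 (limma adjusted p = 0.568). The protamine genes Prm1, Prm2 and Prm3, which pack the DNA of the sperm head, differed by 0.07, 0.17 and 0.50 (limma adjusted p = 0.81, 0.512 and 0.0983). The summed FPKM of the list was 40400 to 42800 in M1 and 33300 to 44500 in M5, so the total overlapped between the groups. The 6 calls of the list were reduced to 1 by centring on the median and to 1 by removing the trend with GC content, and with 1 library left out 0 to 7 genes were called lower. There were 0 calls without M1 replicate 1 and without M1 replicate 3, 1 or 2 without M1 replicate 2, M5 replicate 1 or M5 replicate 2, and 7 lower and 6 higher without M5 replicate 3.

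Of 26 genes tested of round spermatids, 5 were called lower (19.2%) and 2 higher (7.69%, against 3.23% of all genes). Those lower were Tssk6, a testis serine kinase (206 against 148 FPKM, log2 difference -0.47, limma adjusted p = 0.016), Rfx2, a transcription factor of ciliary and spermatid genes (115 against 87.5 FPKM, -0.39, limma adjusted p = 0.0164), the acrosomal genes Acr (-0.27) and Acrv1 (-0.24) and the sperm calcium channel gene Catsper1 (-0.23). The 2 higher were the acrosomal Spaca7 (0.28) and a second channel gene, Catsper3 (0.23), so genes of the acrosome and of the channel moved both ways. Of 28 genes tested of the sperm axoneme, 3 were called lower, namely Cfap65, Dnah2 and Tekt5 (-0.45, -0.37 and -0.24). With 1 library left out, 0 to 5 round spermatid genes and 0 to 2 axoneme genes were called lower. Neither list had a call without M1 replicate 1 or without M1 replicate 3, and without M5 replicate 3 the axoneme list had 2 called lower and 3 higher. After centring or removal of the GC trend, 0 genes of either list were called.

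In the meiotic list, 3 of 30 genes tested were called higher (10%) and 0 lower, with a median of 0.09. Removal of the GC trend left 1 call and turned the median to -0.05, and with 1 library left out 1 to 3 were called. Sycp1, which forms the transverse filaments of the synaptonemal complex, was at 53.5, 51.2 and 50.8 FPKM in M1 and at 78.4, 78.2 and 84.7 FPKM in M5 (log2 difference 0.62, SE 0.053, limma adjusted p = 0.00548, called in every fit). Hormad1, a protein of unsynapsed chromosome axes, was at 59.4, 63.5 and 57.4 FPKM in M1 and at 102, 91.3 and 95.0 FPKM in M5 (log2 difference 0.67, limma adjusted p = 0.00692). Smc1b, the meiotic cohesin subunit, differed by 0.42 (limma adjusted p = 0.0444). For both Sycp1 and Hormad1 the Con libraries, with means of 65.7 and 80.5 FPKM, lay above M1, and MNC, with 46.4 and 59.0 FPKM, lay below or near it. The other synaptonemal complex genes Sycp2 and Sycp3 differed by 0.12 and 0.16 and were not called. In whole testis, fewer cells of a type and less RNA per cell cannot be told apart. Of 13 tested genes of spermatogonia, limma called 0, with 2 at an unadjusted p under 0.05, and Dmrtb1 had the largest decrease of that list (-0.33, limma adjusted p = 0.0813).

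**Figure D3:**
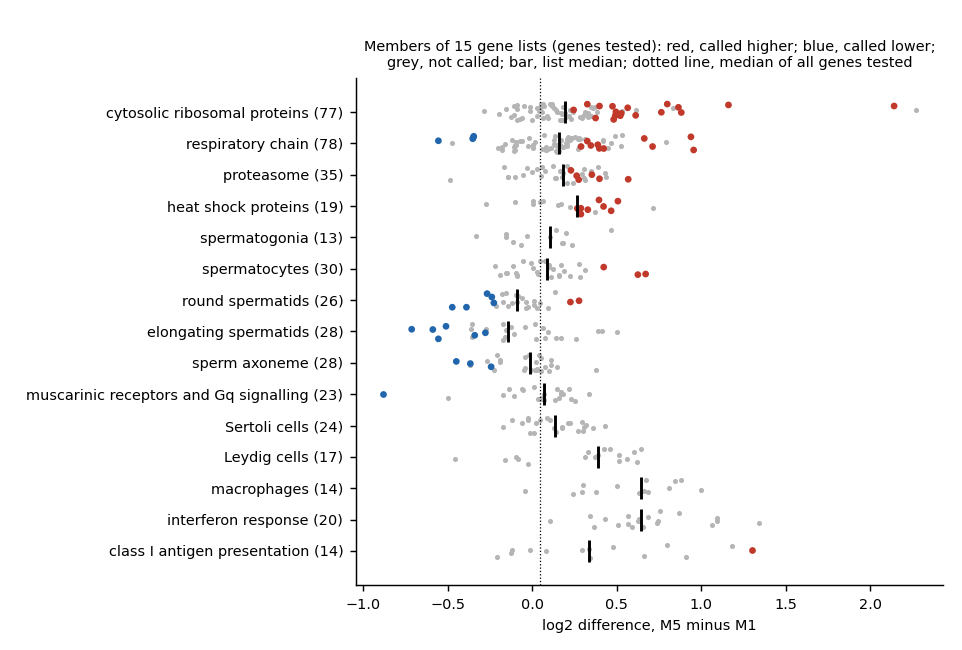
The x axis gives the log2 difference of M5 minus M1 and each row is a gene list, with the number of its genes tested in parentheses. Points are genes (red called higher, blue called lower, grey not called), bars are list medians, and the dotted line marks the median of all genes tested, 0.04. Ribosomal and heat shock genes have red points to the right, elongating spermatid genes have blue points to the left, and macrophage and interferon genes lie to the right without a call.

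Histone genes were called in both directions. Of 23 genes tested of the replication-dependent and testis histones, H2ac23 and H2bc4 (0.92, limma adjusted p = 0.0431) were called higher, and H2ac18 (-0.66, limma adjusted p = 0.0197) and H4c1 (-0.47, limma adjusted p = 0.0407) lower. Each direction held 8.7% of the list, against 3.23% of all genes called higher and 3.52% called lower. Of the windows of H2bc4, H2ac18 and H4c1, 33.7%, 89.7% and 47.9% are shared with other genes. The H2al genes encode short H2A variants of condensing spermatids and were looked at as a family after their values were seen. Of 11 tested, 4 were called lower, against 3.52% of all genes, and 0 higher. H2al1b was at 27.4, 27.9 and 20.6 FPKM in M1 and at 7.64, 5.98 and 11.7 FPKM in M5 (log2 difference -1.51, SE 0.23, limma adjusted p = 0.0205). H2al1m was at 42.4, 45.6 and 39.9 FPKM in M1 and at 25.3, 26.96 and 25.1 FPKM in M5 (log2 difference -0.70, limma adjusted p = 0.00692). H2al1a and H2al2a followed with -0.81 and -0.34. The 2 groups were apart in all 4, as they were in all 980 genes called, so this adds nothing to the calls. Of the windows of H2al1a, H2al1b and H2al1m on the X chromosome, 88.1% to 99.8% are shared with other genes.

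Genes of the ribosome, the respiratory chain, the proteasome and the heat shock proteins were called higher in M5 more often than lower, mostly by less than 1 on the log2 scale. Of 77 cytosolic ribosomal protein genes, all of them tested, 18 were called higher (23.4%, against 3.23% of all genes) and 0 lower, 62 had a difference above 0, and the median was 0.19. Besides Rps13, the largest were Rpl35a, at 50.5, 38.1 and 55.9 FPKM in M1 and at 105, 113 and 106 FPKM in M5 (log2 difference 1.16, SE 0.13, limma adjusted p = 0.0118), Rps15a, at 18.7, 19.1 and 16.8 against 34.2, 34.0 and 34.8 FPKM (0.88, SE 0.064, limma adjusted p = 0.00288, called in every fit), and Rpl34 (0.86, limma adjusted p = 0.0185). Rpl23, at 87.8 FPKM in M1 and 149 FPKM in M5, was also called in every fit (0.76). The gene of Rpl35a overlaps Iqcg, which differed by 0.34 and was not called (limma adjusted p = 0.0682). The spread in single genes could be far larger than these differences. Rps18 had the largest difference of the list, 2.27, with 5.98, 6.21 and 4.63 FPKM in M1 and 134, 28.2 and 7.02 FPKM in M5, and was not called (limma adjusted p = 0.187). After centring, removal of the GC trend and omission of M5 replicate 3, the list had 9, 10 and 20 genes called higher. With 1 library left out it had 3 to 20 called higher and up to 3 lower.

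Of 78 respiratory chain genes, 10 were called higher (12.8%) and 4 lower (5.13%), with a median of 0.16. Ndufa3, a subunit of complex I, was at 31.5, 32.6 and 32.9 FPKM in M1 and at 63.5, 61.3 and 63.9 FPKM in M5 (log2 difference 0.94, SE 0.047, limma adjusted p = 0.000751, called in every fit). Its mean was 29.9 FPKM in MNC and 28.2 FPKM in Con, so all M5 values lay above those of both controls. The cytochrome oxidase subunits Cox5b and Cox6c rose from 115 to 189 FPKM and from 158 to 250 FPKM, with differences of 0.71 and 0.66 (limma adjusted p = 0.00238 and 0.00646, called in every fit). Both genes of cytochrome c, the electron carrier, were called higher, with the somatic Cycs at 9.78 against 20.1 FPKM (0.95, limma adjusted p = 0.0132) and the testis form Cyct at 84.7 against 112 FPKM (0.40, limma adjusted p = 0.0185). The 4 lower were Ndufc1, Ndufa8, Cox6b2 and Cox7c (-0.56, -0.35, -0.35 and -0.35), so subunits of the same complexes moved both ways. Without M5 replicate 3 the list had 13 called higher and 8 lower, and with another library left out it had as few as 3 higher and 0 lower.

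Of 35 proteasome genes, 6 were called higher (17.1%) and 0 lower, with a median of 0.18. Psma4, a subunit of the catalytic core, was at 56.4, 55.9 and 50.4 FPKM in M1 and at 80.6, 79.6 and 81.9 FPKM in M5 (log2 difference 0.57, SE 0.057, limma adjusted p = 0.00847, called in every fit), and the regulatory subunits Psmd12, Psmc6 and Psmd7 followed with 0.40, 0.35 and 0.27. Of 19 genes of heat shock proteins and their factors, 8 were called higher (42.1%) and 0 lower, with a median of 0.27. Hsp90b1, the chaperone of the endoplasmic reticulum, was at 215, 212 and 214 FPKM in M1 and at 284, 294 and 310 FPKM in M5 (log2 difference 0.47, SE 0.050, limma adjusted p = 0.0101). Dnaja1, a partner of the Hsp70 proteins, was at 63.3, 65.4 and 63.4 FPKM in M1 and at 85.4, 83.4 and 84.5 FPKM in M5 (log2 difference 0.39, SE 0.042, limma adjusted p = 0.0101). The M1 values of both genes lay within a few FPKM of each other and below all M5 values. The mitochondrial chaperonin partner Hspe1 (0.51), the cytosolic Hsp90aa1 (0.42), Hsf2 (0.33), Hspa9 (0.29), Hspa5 (0.29) and Hspa4 (0.27) completed the 8. Mean Hsp90b1 was 211 FPKM in MNC and 285 FPKM in Con, so Con lay near M5 and the vector control near M1. Of these genes, 0 heat shock genes and 1 proteasome gene were called after centring and likewise after removal of the GC trend, and with 1 library left out the heat shock list had 0 to 9 called higher and the proteasome list 1 to 8. The highest counts were those without M5 replicate 3, with 1 called lower in each list, and the heat shock list had 0 called without M1 replicate 1 and without M1 replicate 3.

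The 45 genes called in every fit with 1 library left out depended least on any single library. Of them, 35 have a name, 29 higher and 6 lower in M5. The 6 lower were Fabp3, Tmem89, Gm13306, Gm21409, Itpr3 and Rnf126. Rnf126, a ubiquitin ligase, was at 276, 267 and 283 FPKM in M1 and at 188, 185 and 188 FPKM in M5 (log2 difference -0.56, SE 0.045, limma adjusted p = 0.00488). Among those higher, the following were named after their values were seen. Polr2k, a small subunit shared by the RNA polymerases, was at 22.9, 22.4 and 22.3 FPKM in M1 and at 42.4, 43.4 and 49.2 FPKM in M5 (log2 difference 0.96, SE 0.069, limma adjusted p = 0.00288). Magoh, of the exon junction complex, rose from 21.1 to 39.5 FPKM (0.87, limma adjusted p = 0.00388), and Snrpf, of the spliceosome, from 30.4 to 52.4 FPKM (0.77, limma adjusted p = 0.00238). Slirp, which binds mitochondrial messenger RNA, rose by 0.53, Chchd1 of the mitochondrial ribosome by 0.63, Nabp1, which binds single-stranded DNA, by 0.47, and Rsrc2 by 0.63. Sem1 and Uchl5, which associate with the proteasome, rose by 0.70 and 0.61, the protein modifier Sumo2 by 0.63, and Rps27l by 0.58. In M3 replicate 3, the values of Polr2k, Slirp, Chchd1 and Rsrc2 lay within the range of M5 and that of Snrpf above it, whereas Magoh, Nabp1, Sem1, Uchl5, Sumo2 and Rps27l lay below the M5 range and above all 3 M1 values.

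The lists of somatic and blood cells held few calls, and the medians of several were smaller without M5 replicate 3. Of the 9 red blood cell genes tested, 1 was called. Hba-a1, an alpha globin, was at 18.1, 32.7 and 16.8 FPKM in M1 and at 84.6, 90.2 and 342 FPKM in M5 (log2 difference 2.62, SE 0.56, limma adjusted p = 0.0446), and the call was lost in 11 of 17 alternative fits. The beta globin Hbb-bs was at 3.77, 25.4 and 1.67 FPKM in M1 and at 58.6, 35.7 and 106 FPKM in M5 and was not called (limma adjusted p = 0.0765), as was Hbb-bt (limma adjusted p = 0.0635). The groups overlapped in Hba-a2, Hbb-b1 and Hbb-b2, which were not called (limma adjusted p = 0.861, 0.439 and 0.416). Of the windows of Hba-a1, 71.4% are shared with other genes. The summed level of the red blood cell list was 92.2 to 140 FPKM in M1 and 228 to 680 FPKM in M5. All 20 tested genes of the interferon response had a difference above 0, with a median of 0.64, but limma called 0 of them, with 8 at an unadjusted p under 0.05. With all 5 groups in the fit, 5 were called higher. The macrophage gene Lyz2 was at 36.9, 71.5 and 25.2 FPKM in M1 and at 53.0, 66.8 and 156 FPKM in M5 (limma adjusted p = 0.267). The groups overlapped, and the highest value was that of M5 replicate 3.

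Of 14 tested genes of macrophages, 13 had a difference above 0, with a median of 0.645, and limma called 0, with 2 at an unadjusted p under 0.05. Their summed level was 442 to 546 FPKM in M1 and 522 to 692 FPKM in M5, and Aif1, which held most of it, differed by -0.04. Without M5 replicate 3 the medians of the interferon, macrophage and red blood cell lists fell to 0.39, 0.27 and 0.44. Of 14 genes of class I antigen presentation, Psmb8, an immunoproteasome subunit, was called higher (1.30, limma adjusted p = 0.0399). Of 25 genes of the extracellular matrix, the basement membrane gene Nid2 was called higher (0.91, limma adjusted p = 0.0131). These were 7.14% and 4% of the lists, against 3.23% of all genes. Mean Nid2 was 1.51 FPKM in M1 and 3.71 FPKM in M5, against 5.38 FPKM in MNC and 2.55 FPKM in Con. Of 17 Leydig cell genes, 12 had a difference above 0, and limma called 0, with 3 at an unadjusted p under 0.05. Their median was 0.39, and 0.25 without M5 replicate 3. Cyp17a1, a steroid-synthesis enzyme, was at 122, 178 and 181 FPKM in M1 and at 273, 174 and 317 FPKM in M5 (limma adjusted p = 0.172). The summed level of Leydig cell genes was 1480 to 1750 FPKM in M1 and 1650 to 3350 FPKM in M5. Of 24 Sertoli cell genes, limma called 0, with 1 at an unadjusted p under 0.05 and a median of 0.13, which fell to -0.01 without M5 replicate 3. The part of cell composition in the results of the other lists was not tested. Of the 32 lists, 16 had no member called. Over all lists 77 of 649 genes were called (11.9%, against 6.75% of all genes tested). Of these, 53 were higher and 24 lower (68.8% higher, against 47.9% of all genes called). The lists were chosen with earlier results of these data known, so these shares describe the lists and do not test an enrichment.

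Proteins of spermatid development and of Sertoli cell contacts had been assayed separately, and a list of their 14 transcripts was looked up. Among the 12 of them with enough signal, limma called 0, with 0 at an unadjusted p under 0.05. The 12 were Tnp1, Pgk2, Crem, Fscn1, Sox9, Gja4, Gja1, F11r, Ocln, Cldn11, Ctnnd1 and Tjp1, with differences from -0.11 for Fscn1 to 0.30 for Cldn11. Cldn11, a claudin of Sertoli cell tight junctions, was at 45.5, 41.3 and 42.4 FPKM in M1 and at 41.8, 48.7 and 73.5 FPKM in M5, with the highest value in M5 replicate 3. Phldb2, a protein of the cell cortex that the study followed up, was under the filter, at 0.65, 0.91 and 0.69 FPKM in M1 and at 1.31, 0.95 and 1.72 FPKM in M5 (log2 difference 0.40, exact permutation p = 0.1, the smallest possible). All 3 M5 values of Phldb2 lay above the M1 values, and the MNC values were 0.86, 0.87 and 0.63 FPKM. The Con values were 0.89, 1.11 and 1.05 FPKM and the M3 values 0.71, 1.0 and 1.06 FPKM, so both groups overlapped M5. Of 19 tested genes of blood-testis barrier junctions, limma called 0, with 1 at an unadjusted p under 0.05. Of 28 genes of actin and ectoplasmic specializations, the actin-severing Cfl1 was called higher (0.39, limma adjusted p = 0.0467) and the cytolinker Plec lower (-0.27, limma adjusted p = 0.0332). Each was 3.57% of the list, near the 3.23% of all genes called higher and 3.52% called lower. The calls of Cfl1 and Plec were lost in 12 and 9 of 17 alternative fits. Among immediate early genes, the nuclear receptor Nr4a1 fell from 20.2 to 13.3 FPKM (-0.57, limma adjusted p = 0.0121).

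Called genes differed in base composition. The median GC content of the transcript was 43.4% in genes called higher in M5 and 55.5% in genes called lower, against 49.4% in all genes tested with a known sequence. Among the 901 genes under 40% GC, 98 were called higher and 4 lower, and among the 541 genes of 60% or more, 2 were called higher and 59 lower. Across 13364 genes, GC content and the difference of M5 minus M1 had a Spearman rho of -0.362, as a description of these libraries. Set against the mean of the 6 libraries, rho was positive in each M1 library, at 0.331, 0.161 and 0.347, and was -0.449, -0.418 and -0.003 in M5 replicates 1, 2 and 3. The 2 M5 libraries with the strong slope were not M5 replicate 3. Removing the trend of each library with GC content left 93 genes called, 60 higher (64.5%, against 47.9%) and 33 lower, and 89 of them were among the 980. Among those described above that remained called were H2ac23, Tmem89, Fabp3, Rps13, Ndufa3 and Itpr3, and also Cox5b, Gstp2 and Polr2k. In the ribosomal list, with a median GC content of 51.1%, the removal took the calls from 18 to 10 and the median difference from 0.19 to 0.15. In the heat shock list, at 46.6% GC, it took the calls from 8 to 0 and the median from 0.27 to 0.17. The part of base composition in the results was otherwise not tested.

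**Figure D4:**
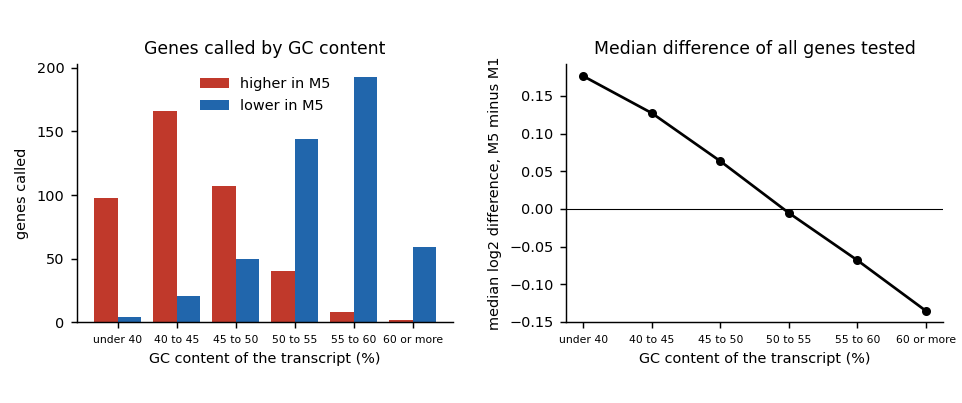
Left, the number of genes called higher (red) and lower (blue) in M5 by GC content of the transcript, and right, the median log2 difference of M5 minus M1 of all genes tested in the same bins. The median falls from 0.18 under 40% GC to -0.14 at 60% or more.

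The libraries outside the comparison were placed by asking, for each called gene, whether the value was nearer to the mean of M5 or of M1 on the log2 scale. On the 980 genes, MNC libraries were nearer to M5 in 3.57% to 13.9% of genes and M3 replicates 1 and 2 in 7.35% and 6.53%, so on these genes they lay with M1. The Con libraries were nearer to M5 in 32% to 44.2%. M3 replicate 3 was nearer to M5 in 83.5% of the 980 genes and in 93.3% of the 45 called in every fit, although its label is M3. The values that set M5 apart from M1 were thus also found in a library labelled as knockdown of another receptor, and the labels give no batch to set beside this. With all 5 groups in 1 fit, 1380 genes were called between M5 and M1, and 2097 when M3 replicate 3 was left out of that fit, an alternative chosen after seeing the data.

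**Figure D5:**
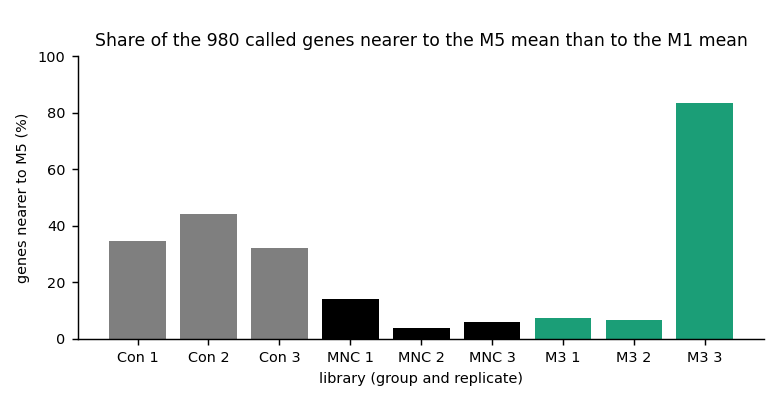
For each of the 9 libraries of Con, MNC and M3, the bar gives the percentage of the 980 called genes whose value was nearer to the M5 mean than to the M1 mean. M3 replicate 3 stands at 83.5%, against 3.57% to 44.2% for the other 8.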

How the data were processed

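RNA of 15 mouse testis samples was sequenced, and the authors deposited 1 table of FPKM values per gene, made from reads aligned to the mouse genome build mm10 per the submitters' processing notes. No read counts were used here, so the depth of each library is unknown, and limma took the place of the study's count-based test. FPKM is normalized to length and depth, so a difference is one of relative abundance.

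Columns were mapped to samples by title. Genes with a mean of 1 FPKM or more over the 15 libraries were kept, and log2(FPKM + 1) was fitted with limma 3.58.1 (R 4.3.3, eBayes with trend) for 3 M5 against 3 M1 libraries. Differences are given on the log2(FPKM + 1) scale, on which those of low genes come out too small. P-values were adjusted by Benjamini and Hochberg over all 14514 genes tested, with a call at an adjusted p under 0.05. Receptor genes were tested by exact two-sided permutation. Tables were handled with Python 3.11.15, pandas 2.3.3, numpy 2.4.6, scipy 1.17.1 and matplotlib 3.10.9. Of the 23510 IDs, 21143 matched a RefSeq gene of GRCm38.p6, the assembly of mm10. GC content and shared 31-base windows came from GENCODE transcripts, for 13364 of the genes tested. The fit was also run on simulated data with 200 changed genes and independent noise. Those data held no trend with GC content and no outlying library, so they do not test how the fit handles either.

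The members and gene lists were chosen with earlier results of these data known. Named genes were the 12 largest called in each direction, the receptors, the assayed proteins and up to 4 called genes of each list, or up to 3 abundant ones where none was called. Further list members, the H2al, Gstp and other small families and the genes called with each library left out were named after their values were seen. Alternatives were a pseudocount of 0.1, other filters, centring, quantile normalization, no variance trend, all 5 groups in 1 fit, a replicate block, removal of the GC trend and omission of each library.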

Additional observations from a re-analysis of the deposited data

How the results depend on the processing

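Against 980 genes called, centring on the median gave 252 (41.7% higher, against 47.9%), no variance trend 384, removal of the GC trend 93, all 5 groups without M3 replicate 3, an alternative chosen after seeing the data, 2097, and the study's threshold, an adjusted p of 0.001 with a log2 difference of 1, 8. Omission of 1 library gave 56 to 1690. Filters of 0.1 and 5 FPKM, no filter, a pseudocount of 0.1, a filter over the 6 libraries and all 5 groups gave 736, 1267, 660, 1003, 1002 and 1380, all within 1.5 times the main count, and quantile normalization gave 1183 (38.8% higher). For the 77 called genes of the lists, no filter, centring, no trend, GC removal, all 5 groups without M3 replicate 3 and the study's threshold gave 48, 25, 35, 23, 143 and 3, and omission of 1 library 12 to 120. The replicate numbers did not pair the samples: the correlations of deviations of same-numbered libraries were -0.0944, -0.239 and -0.0978. With the replicate number as a block, 39 genes were called, 6 of them in the lists. Signs turned only in small differences that were not called. Centring gave Chrm1 -0.0495, Chrm5 -0.0113, Chrm3 -0.0377, Crem -0.0607 and Pgk2 -0.00483. Quantile normalization gave Aif1 0.0179, Crem -0.000914 and Ocln -0.0146. GC removal gave Crem -0.127, Gja1 -0.0508, Ocln -0.073, Pgk2 -0.0535 and Zcchc17 -0.0109. Omission of 1 library gave Chrm1 -0.00555 to 0.0657, Aif1 -0.103 to 0.0586, Crem -0.0357 to 0.041, F11r -0.0252 to 0.366, Ocln -0.0799 to 0.203, Prm1 -0.0533 to 0.239, Sox9 -0.0108 to 0.398 and Zcchc17 -0.00957 to 0.131. The causes were not tested. The unknown depth limits what can be said of genes listed at 0 and of the receptor genes below 1 FPKM.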
